A study of Mus musculus with 4 samples.

Results

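The mitochondrial ribosomal proteins were followed here as the probe sets with 1 platform gene symbol that starts with Mrpl or Mrps and a digit, which name proteins of the large and the small subunit. They numbered 156 of the 45101 probe sets on the array and represented 76 genes, 47 Mrpl and 29 Mrps. A further 4 probe sets that name such a gene together with a second gene were left out, and Mrpl30 and Mrpl53 were represented by such probe sets alone. The samples were pseudopodia and cell bodies of NIH/3T3 cells, an established mouse fibroblast line, with 2 arrays of each fraction. All samples came from serum-starved cells that spread for 2 h on a fibronectin-coated porous membrane and then received lysophosphatidic acid (LPA), a lipid that attracts migrating cells, at 150 ng/ml from below for 1 h. Both fractions therefore carried the same treatment, and unstimulated cells were not analysed here. Pseudopodia were scraped from the underside after light formaldehyde fixation, and cell bodies from the upper side. The labels number the replicates without saying whether they came from separate cultures, so the p-values may reflect technical spread alone.

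Mitochondria keep their own ribosomes, which translate the few mRNAs of the mitochondrial genome into membrane subunits of the respiratory chain and the ATP synthase. The ribosomal RNAs are mitochondrial transcripts, whereas every ribosomal protein is encoded in the nucleus, translated in the cytosol and imported. Some of these proteins have bacterial counterparts, and others were added in the mitochondrial lineage. RNAs of mitochondrial proteins can be found at the surface of mitochondria in several organisms, so their place in the cell need not be even.

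Each array gave a MAS5 signal per probe set, a linear brightness, and the deposited values had the same trimmed mean of 250 on every array. Every difference is thus a share of its fraction's total RNA signal, and in these bulk fractions fewer RNA molecules per protrusion and less protrusion material cannot be told apart. Differences are log2(pseudopodia) minus log2(cell body) after rescaling to 500 and adding 32 to each signal, given ± the standard error (SE) from limma, with n = 2 arrays in each group. They understate changes of dim probe sets. Of 8 fibroblast markers, 7 passed the filter on dim probe sets, and all 8 summed to 92568.4 to 97003.8 in pseudopodia and 102107.3 to 105404.2 in cell bodies. Vim, the brightest of them, stood at 0.27, and the other 6 kept markers had values below 0, with a median of -0.34 over the 7. Pdgfra passed as lower (-0.92, adjusted p = 0.0441, limma). With the replicate number as a block 4 of the 7 were lower, where 11.1% of all genes were. The marker not kept was Thy1, with signals of 56.3 and 16.2 in pseudopodia and 5.7 and 33.5 in cell bodies. Markers of blood cells summed to 29.7 to 101.1 in pseudopodia and 83.2 to 104.4 in cell bodies (4 genes). Those of endothelium summed to 41.2 to 84.6 in pseudopodia and 36.1 to 48.7 in cell bodies (3 genes), and those of epithelium to 596.4 to 920.7 in pseudopodia and 735.5 to 783.2 in cell bodies (4 genes). Of the reference RNAs, Kif1c, Pkp4 and Rab13, known in protrusions, stood at 2.14, 2.06 and 1.99, and Neat1, a nuclear RNA, at -2.17. They were listed with earlier results of these data known, so their values are no independent check of the fractions. All 4 passed (adjusted p = 0.00944 to 0.00957, limma). Malat1, the other nuclear RNA listed, stood at -1.39 and did not pass (adjusted p = 0.130, limma), with -2.17 and -0.61 in the replicate pairs. Its signals were 438.5 and 1545.6 in pseudopodia, against 2030.0 and 2370.5 in cell bodies. With the replicate number as a block Malat1 passed as lower (adjusted p = 0.000845, limma). As a sign of RNA integrity, the ratio of 3' to 5' probe sets for beta-actin was 1.77 and 3.41 in pseudopodia, against 1.55 and 1.89 in cell bodies. For Gapdh this ratio was 0.96 and 1.01 in pseudopodia, against 0.92 and 0.95 in cell bodies. The part of the markers and of RNA integrity in the results below was not tested.

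The RNAs of 3 mitochondrial ribosomal proteins were higher in pseudopodia, none was lower, and the family as a group stood slightly towards pseudopodia. The 3 were Mrpl52 and Mrpl32 of the large subunit and Mrps15 of the small subunit, 1.92 to 2.14 times as strong in pseudopodia relative to total signal. With each gene represented by its probe set of highest mean signal, these 3 of 76 genes (3.95%) passed an adjusted p of 0.05 over 10960 genes, of which 1.82% passed as higher and 3.52% as lower. A count of 3 is near that background and is no result about the family. The arrays of a replicate number shared a scan day, and with that number as a block 16 of the 76 (21.1%) were higher and 0 lower, where 8.77% of all genes were higher and 11.1% lower. The blocked fit has 1 residual degree of freedom and draws most of its spread estimate, 16.6 degrees, from the other genes. The count also depended on the arrays: it was 10 without pseudopodia replicate 1 (5.96% of all genes) and 7 without pseudopodia replicate 2 (3.26%). It was 0 without cell body replicate 1 and 0 without cell body replicate 2, where limma called 0 of all genes as well and 5 and 8 members had an unadjusted p under 0.05.

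Mrpl52, a mitochondria-specific protein of the large subunit, had signals of 6350.2 and 9201.2 in pseudopodia, against 3445.9 and 3684.6 in cell bodies. Both pseudopodia arrays lay well above both cell body arrays. The difference was 1.10 ± 0.20, or 2.14-fold (adjusted p = 0.0294, limma), with 0.88 in the replicate 1 pair and 1.32 in the replicate 2 pair. It was also seen on 2 dimmer probe sets of the gene, at 0.91 and 0.87, of which the first passed over the 22519 probe sets kept (adjusted p = 0.0448, limma) and the second did not (adjusted p = 0.0610). Its 4th probe set was below the filter, with a mean signal of 29.1, and stood at -0.68.

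Mrpl32 is a large-subunit protein with a bacterial counterpart whose precursor is cut by the m-AAA protease of the inner mitochondrial membrane. Its only probe set read 1278.3 and 1344.4 in pseudopodia, against 722.6 and 629.2 in cell bodies. The groups did not overlap, and the difference was 0.94 ± 0.19 (adjusted p = 0.0358, limma), with 0.81 and 1.08 in the replicate pairs. Of the protease subunits, Spg7 stood at -0.75 ± 0.20 and Afg3l2 at -0.17 ± 0.20, and neither passed (adjusted p = 0.0655 and 0.661, limma). With the block, Spg7 passed as lower (adjusted p = 0.00860).

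Mrps15 is a small-subunit protein with a counterpart in bacteria, where it binds ribosomal RNA. It had signals of 2907.8 and 3997.5 in pseudopodia, against 1859.2 and 1676.6 in cell bodies, again without overlap. The difference was 0.94 ± 0.21 (adjusted p = 0.0419, limma), with 0.64 and 1.25 in the replicate pairs. A second probe set stood at 1.18 ± 0.24 (adjusted p = 0.0412 over probe sets, limma). Another, dim one had the opposite sign, with 27.9 and 39.6 in pseudopodia and 98.0 and 79.6 in cell bodies, a difference of -1.08 that did not pass (adjusted p = 0.106). With the kept probe sets of each gene averaged, Mrps15 stood at 0.35 and no longer passed. Mrpl52, Mrpl32 and Mrps15 were the members at least 1.5-fold higher in each of the 4 pairings of a pseudopodia with a cell body array. These were 3.95% of the members, near the 3.28% of all genes, so the count is no result about the family. The rule was computed on the same arrays as the test and is no separate check of the 3 genes. No member met the rule in the other direction, which 5.54% of all genes did.

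**Figure D1:**
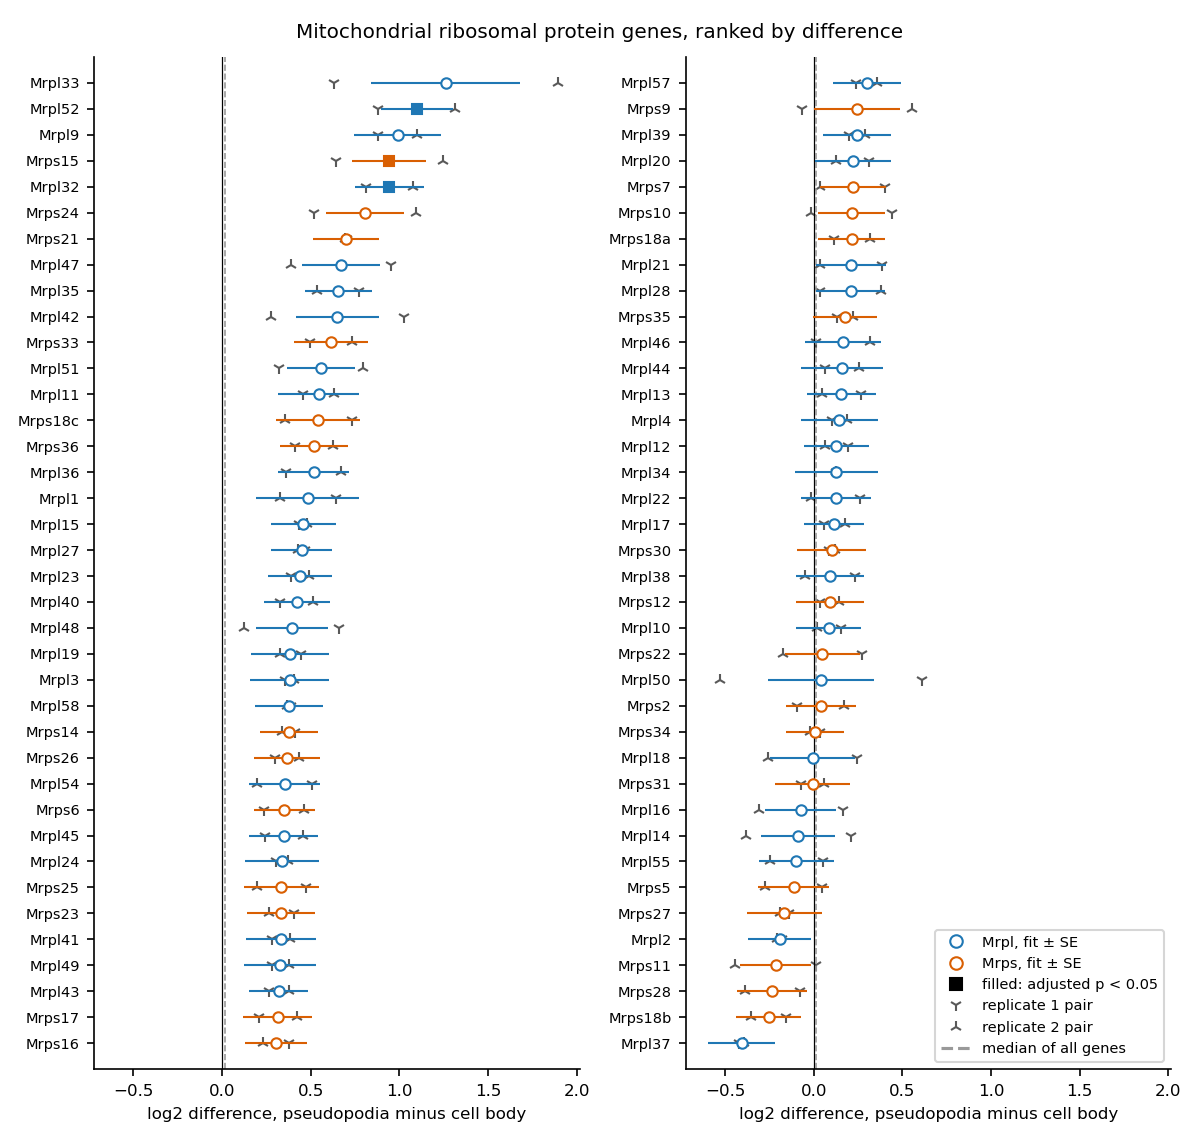
The 76 genes in order of their log2 difference, pseudopodia minus cell body (x axis), each by its brightest kept probe set, with the fit ± SE (large symbols), the value in each replicate pair (small symbols) and the median of all genes (dashed). Mrpl52, Mrps15 and Mrpl32 (filled) passed, and 64 of the 76 values lie above 0.

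The start regions of these 3 genes, and of Mrpl37, which had the lowest difference of the family, are shown as background. They come from RefSeq, build GRCm38.p6, 250 bases before to 50 after the annotated start, written 5' to 3' on the gene's strand. Capitals mark exact matches on either strand to CCGGAAGT, the core bound by ETS factors such as GABPA, to CGCATGCG, the core bound by NRF1, or to AAGATGGC, bound by YY1, factors known at promoters of nuclear genes for mitochondrial proteins. The arrays measured no transcription or binding, and a link of these letters to the differences between fractions was not tested.
Mrpl52, chr14:54426659-54426958 (plus strand): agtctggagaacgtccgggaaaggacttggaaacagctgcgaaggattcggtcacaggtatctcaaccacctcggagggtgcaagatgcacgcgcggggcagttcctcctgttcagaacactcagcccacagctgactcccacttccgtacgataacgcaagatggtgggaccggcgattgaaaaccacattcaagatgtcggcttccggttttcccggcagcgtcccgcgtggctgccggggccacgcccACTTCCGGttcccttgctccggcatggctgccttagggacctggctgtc
Mrpl32, chr13:14612988-14613287 (minus strand): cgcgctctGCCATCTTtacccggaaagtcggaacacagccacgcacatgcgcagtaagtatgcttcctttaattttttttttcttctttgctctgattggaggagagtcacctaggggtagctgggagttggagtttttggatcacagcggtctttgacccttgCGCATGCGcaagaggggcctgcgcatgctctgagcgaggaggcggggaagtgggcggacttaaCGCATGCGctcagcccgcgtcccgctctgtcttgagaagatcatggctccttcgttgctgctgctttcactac
Mrps15, chr4:126046678-126046977 (plus strand): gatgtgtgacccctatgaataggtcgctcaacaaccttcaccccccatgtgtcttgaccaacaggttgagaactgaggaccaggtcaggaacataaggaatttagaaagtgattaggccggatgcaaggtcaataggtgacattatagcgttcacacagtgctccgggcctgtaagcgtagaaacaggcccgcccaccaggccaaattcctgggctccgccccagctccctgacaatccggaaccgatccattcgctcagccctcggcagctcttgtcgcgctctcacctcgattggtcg
Mrpl37, chr4:107066817-107067116 (minus strand): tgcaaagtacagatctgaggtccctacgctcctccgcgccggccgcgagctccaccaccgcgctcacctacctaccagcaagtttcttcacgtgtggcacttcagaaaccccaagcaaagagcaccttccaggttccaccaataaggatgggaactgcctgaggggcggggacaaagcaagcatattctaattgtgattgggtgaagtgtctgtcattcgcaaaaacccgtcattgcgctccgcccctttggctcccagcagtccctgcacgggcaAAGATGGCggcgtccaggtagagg
Mrpl52 held the ETS core just after the annotated start. Mrpl32 held the NRF1 letters in 2 places and the YY1 letters once, Mrpl37 the YY1 letters, and Mrps15 none of the 3. A start region was found for 67 of the 76 genes. The ETS core occurred in 16.4% of them, against 4% of all 27025 genes in the table, the YY1 letters in 17.9% against 2.88%, and the NRF1 letters in 10.4% against 1.91%. In all, 28 of the 67 (41.8%) held at least 1 of the 3 motifs, against 8.36% of the table, which includes noncoding genes such as Malat1. The share was 43.9% of 41 Mrpl and 38.5% of 26 Mrps genes, and the NRF1 letters occurred in 6 Mrpl genes and 1 Mrps gene. TATAAA, the letters of a TATA box, occurred in 5.97% of the members and 14.2% of the table. A match is a description of the letters only.

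The genes next to these in size of difference did not pass. Mrpl33, a small protein of the large subunit, had the highest difference of all, 1.26 ± 0.42 (adjusted p = 0.119, limma). Its signals were 1017.8 and 2919.1 in pseudopodia, against 652.3 and 774.3 in cell bodies, so 1 pseudopodia array set most of the difference (0.63 in the replicate 1 pair and 1.89 in the replicate 2 pair). Mrpl9 stood at 0.99 ± 0.25 (adjusted p = 0.0570, limma), with 752.6 and 1100.7 in pseudopodia and 401.6 and 505.2 in cell bodies. Its arrays did not overlap, yet its dimmer probe sets stood at 0.23 and -0.16.

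Mrps24, the counterpart of the bacterial protein at the site where mRNA enters the small subunit, had 3780.5 and 5692.6 in pseudopodia, against 2636.9 and 2657.8 in cell bodies. It stood at 0.81 ± 0.22 (adjusted p = 0.0710, limma) and at 0.58 on its other probe set. Both IDs end in s_at, which marks probe sets not specific to 1 transcript. Mrps21, which has a bacterial counterpart, stood at 0.70 ± 0.18 (adjusted p = 0.0657, limma), with 2069.4 and 2264.9 in pseudopodia and 1261.5 and 1396.1 in cell bodies. Mrpl47, whose bacterial counterpart lies at the exit of the peptide tunnel, stood at 0.67 ± 0.22 (adjusted p = 0.113, limma), with 601.1 and 497.8 in pseudopodia and 302.9 and 376.4 in cell bodies. In all 5 of these genes both pseudopodia arrays were above both cell body arrays, as in 27.4% of all genes. With the replicate number as a block all 5 passed, with adjusted p between 0.000883 (Mrpl33) and 0.0232 (Mrpl47) by limma. Of all genes 8.77% passed as higher with the block. The 5 were picked for their high differences, so these counts are no result about them. The block added 8 further genes, Mrpl11, Mrpl15, Mrpl35, Mrpl42, Mrpl51, Mrps18c, Mrps33 and Mrps36, whose differences lay between 0.46 and 0.65.

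At the other end, no member passed as lower, and 0 had an unadjusted p under 0.05 in that direction, against 20 in the other. Among all genes these shares were 12.3% lower and 10.7% higher. Mrpl37, a mitochondria-specific protein of the large subunit, was lowest at -0.41 ± 0.19 (adjusted p = 0.245, limma). Its signals of 764.0 and 797.1 in pseudopodia lay below the 1027.9 and 1051.1 in cell bodies, with -0.42 and -0.39 in the replicate pairs. Mrps18b stood at -0.25 ± 0.18, Mrps28 at -0.23 ± 0.20 and Mrpl2, whose bacterial counterpart lies near the peptidyl transferase centre, at -0.19 ± 0.18. In these 3, and in Mrps27 at -0.17, the pseudopodia arrays were below the cell body arrays without overlap. Mrps11, Mrps5 and Mrpl55 stood at -0.21, -0.11 and -0.10 with overlapping arrays, and each had opposite signs in the 2 replicate pairs.

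**Figure D2:**
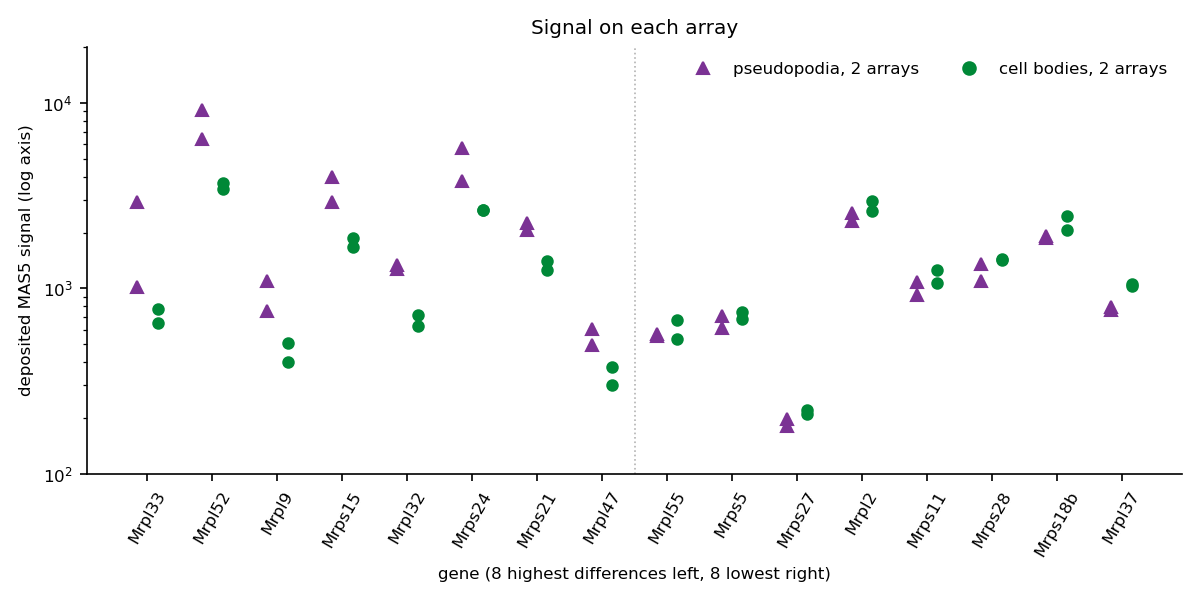
Deposited MAS5 signal (y axis, log scale) on each array for the 8 member genes with the highest and the 8 with the lowest difference, pseudopodia (triangles) left of cell bodies (circles). In the left 8 genes the 2 pseudopodia arrays lie above the 2 cell body arrays, and in Mrpl37 at the far right, 764.0 and 797.1 lie below 1027.9 and 1051.1.

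Over the whole family the values were shifted towards pseudopodia. The median difference of the 76 genes was 0.30, with the central 50% of values between 0.10 and 0.44, beside a median of 0.01 over all genes. Relative to the median gene the family stood 0.29 higher, with 0.26 in the replicate 1 pair and 0.27 in the replicate 2 pair. Most members were on bright probe sets, which stood towards pseudopodia in general: with mean signals of 1000 or more, the median was 0.33 over 66 member probe sets and 0.17 over all 3898. Positive values numbered 64 of 76 (84.2%, against 51.3% of all genes), 56 were positive in both pairs (73.7% against 36.2%), and 5 were negative in both (33.4% of all genes). In 45 genes both pseudopodia arrays exceeded both cell body arrays (59.2% against 27.4%), and in 5 both lay below (25.2% of all genes). Summed over the 76 probe sets, the signal in pseudopodia was that in cell bodies multiplied by 1.25 for replicate 1 and by 1.29 for replicate 2. These counts describe genes measured on the same 4 arrays. After quantile normalization the shift was 0.15, and on hybridization controls 35 of the 76 values were positive, with the median of all genes at -0.29.

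The median of the large subunit stood somewhat further towards pseudopodia than that of the small subunit, by less than the spread among members. This order did not hold in each ancestry group given below. The median difference was 0.33 over 47 Mrpl genes and 0.22 over 29 Mrps genes, 0.11 apart, with 0.07 in the replicate 1 pair and 0.10 in the replicate 2 pair. The difference between subunits was not tested, since members are not replicates. Of the Mrpl genes 41 had positive values and 2 passed (4.26%), and of the Mrps genes 23 had positive values and 1 passed (3.45%). Among all genes 51.3% had positive values and 1.82% passed as higher, so the counts of 2 and 1 are no result about a subunit. Both pseudopodia arrays exceeded both cell body arrays in 28 Mrpl genes (59.6%) and 17 Mrps genes (58.6%), beside 27.4% of all genes. The plot of cumulative shares shows both subunits to the right of all genes, with overlapping ranges of -0.41 to 1.26 in Mrpl and -0.25 to 0.94 in Mrps.

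**Figure D3:**
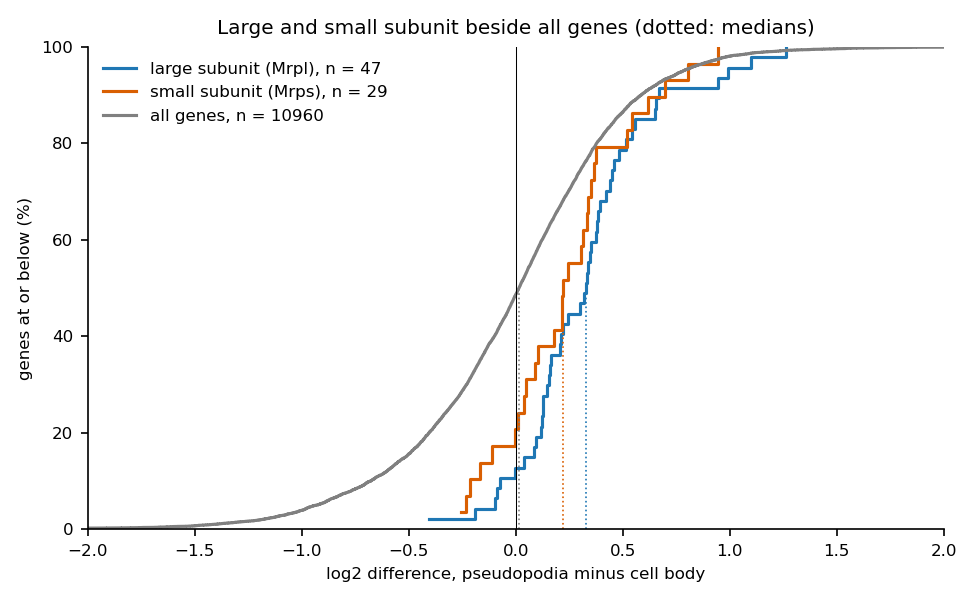
Share of genes (y axis, %) at or below each log2 difference, pseudopodia minus cell body (x axis), for the large subunit, the small subunit and all genes. Dotted lines mark the medians of 0.33, 0.22 and 0.01.

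Symbols and structure differ for 3 members. Mrps30 and Mrps18a sit in the large subunit of the mammalian mitoribosome despite their names, and Mrps36 is a component of the 2-oxoglutarate dehydrogenase complex. Mrps30 stood at 0.10 ± 0.19, Mrps18a at 0.21 ± 0.19 and Mrps36 at 0.52 ± 0.19. With the first 2 counted in the large subunit and Mrps36 left out, the subunits were 0.09 apart. Mrps18a has relatives in the small subunit that descend from the same bacterial protein, of which the ancestry split below counts Mrps18c as the counterpart: Mrps18c stood at 0.54 ± 0.24 and Mrps18b at -0.25 ± 0.18. None of the 3 relatives passed (adjusted p = 0.560 for Mrps18a, 0.218 for Mrps18c and 0.462 for Mrps18b, limma).

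A split by ancestry, chosen after values were seen, separated the groups little. The 45 members with a bacterial counterpart had a median of 0.25 and the 30 mitochondria-specific members one of 0.31. The 10 mitochondria-specific proteins of the small subunit had the lowest median, 0.11, with 7 positive values. The 20 of the large subunit, Mrps30 and Mrps18a included, stood at 0.32 with 19 positive values, Mrpl37 being the exception. Among members with a bacterial counterpart the order of the subunits was reversed, with 0.22 over 29 large-subunit and 0.28 over 16 small-subunit genes. Their medians in the replicate pairs were 0.31 and 0.32 in the large and 0.31 and 0.28 in the small subunit. In the replicate pairs the proteins with a bacterial counterpart had medians of 0.31 and 0.32 and the mitochondria-specific ones 0.27 and 0.27, the reverse order of the medians of the fit.

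The following 3 members were listed for their roles in translation. Mrpl12, a protein of the stalk that recruits translation factors, read 2779.0 and 3081.8 in pseudopodia and 2428.3 and 2948.3 in cell bodies. Its difference of 0.13 ± 0.19 had a 95% interval of -0.30 to 0.55. Mrps12, of the decoding centre, stood at 0.09 ± 0.19 with an interval of -0.35 to 0.53. Mrpl3, whose bacterial counterpart reaches towards the peptidyl transferase centre, stood at 0.38 ± 0.22, with signals of 1301.2 and 1696.7 in pseudopodia and 1013.2 and 1276.9 in cell bodies. Its interval was -0.13 to 0.89, so each of the 3 intervals holds both 0 and the family median.

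Probe sets of the same gene often differed. Of the 156 member probe sets 134 passed the filter on mean signal, and each of the 76 genes kept at least 1. In 35 genes 2 or more were kept, in 17 of these the values had both signs, and in 13 they lay more than 1 log2 unit apart. The widest was Mrps15 (1.18 to -1.08). Mrps21 followed, with its brightest probe set at 0.70 and a dim one at -1.40, which read 32.4 and 53.6 in pseudopodia and 156.5 and 120.8 in cell bodies. Mrps10 stood at 0.21 and -1.65, Mrpl38 at 0.09 on the brightest, 0.39 and -1.16, and Mrpl51 at 0.56 and -0.77.

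Mrpl15 had 6 kept probe sets, of which 5 lay between -0.02 and 0.46 and the dimmest at -1.07. The dim probe set of Mrps10 read 8.8 and 75.9 in pseudopodia, against 132.5 and 135.0 in cell bodies, so its 2 replicate pairs differed widely (-2.58 and -0.72). In the whole family 6 kept probe sets were below -1, of Mrps15, Mrps21, Mrps10, Mrps2, Mrpl38 and Mrpl15. In each of these genes the brightest probe set had a positive value, and the 6 had mean signals of 32.3 to 148.3. None passed (adjusted p = 0.0515 to 0.257, limma), and 5 passed as lower with the block, where 11.9% of all kept probe sets did. The 6 were picked for values below -1, so this count is no result about them.

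Signal on a probe set depends on its sequence and does not rank RNA amounts, and positive values were the majority of member probe sets at each level of signal, with a higher share among bright ones, as among all kept probe sets. With mean signals of 1000 or more, 59 of 66 member probe sets were positive (89.4%, against 64.2% of all such probe sets) and 0 were below -1 (3.46% of all). With signals under 100, 13 of 21 were positive (61.9% against 46.2%) and 4 were below -1 (19.0% against 8.4%). Between these limits 30 of 47 were positive (63.8% against 42.6%) and 2 below -1 (4.26% against 8.23%). Where each probe set lies in its gene was not analysed here.

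Some dimmer probe sets were higher instead. The brightest probe set of Mrpl13 stood at 0.16 ± 0.20, while its other kept ones stood at 1.03 ± 0.25 and 1.24 ± 0.24, the last passing over probe sets (adjusted p = 0.0381, limma). That probe set read 432.0 and 597.5 in pseudopodia and 208.0 and 204.0 in cell bodies, without overlap. Counted by probe set, 6 of the 134 were higher and 0 lower, where 1.09% and 3.38% of all kept probe sets were. These belonged to Mrpl52 (2), Mrps15 (2), Mrpl32 and Mrpl13. With the block 25 member probe sets were higher (7.31% of all kept probe sets) and 6 lower (11.9%). All 14 kept probe sets whose ID marks possible cross-hybridization (ending in x_at) had positive values, with a median of 0.52. Of all such kept probe sets 66.8% were positive, with a median of 0.22. Among the probe sets that passed without the block, that of Mrpl13 and the dimmer one of Mrpl52 have such IDs. Mrpl11 and Mrpl15, which passed as genes only with the block, were also represented by such probe sets. The probe set of Mrpl11 for 1 transcript stood at 0.33. RefSeq lists pseudogenes of Mrpl23, Mrpl27, Mrpl48 and Mrps36, so values of these genes are uncertain to the extent that such copies share signal.

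**Figure D4:**
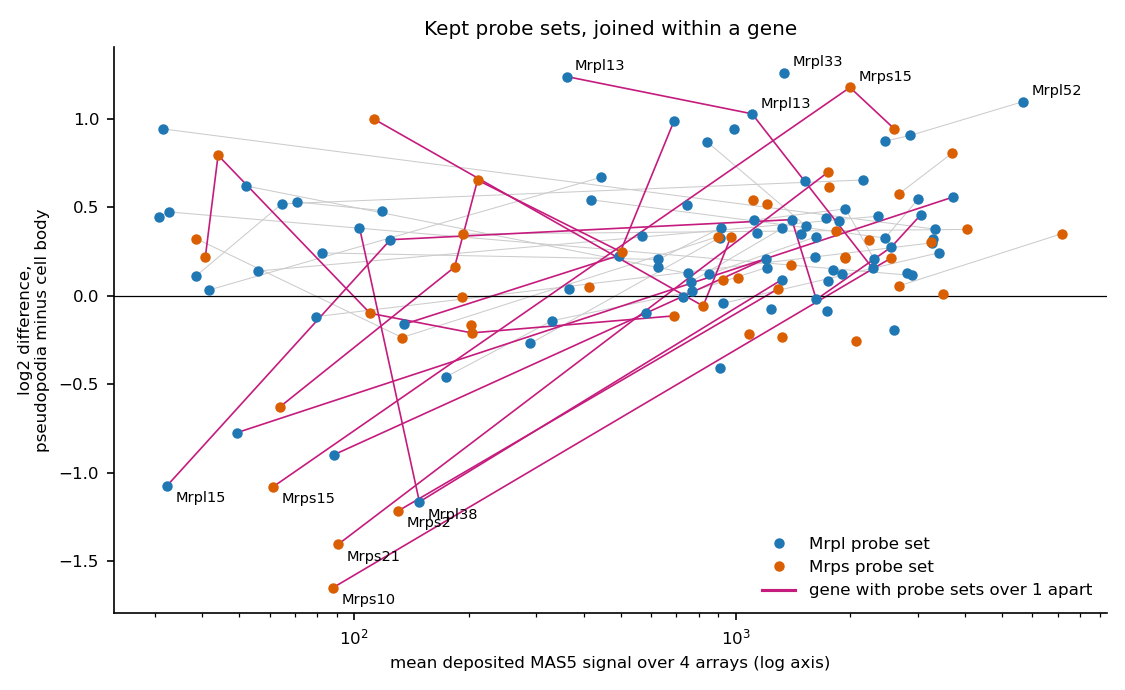
The 134 kept member probe sets by mean deposited signal over the 4 arrays (x axis, log scale) and log2 difference, pseudopodia minus cell body (y axis), with probe sets of a gene joined. In the 13 genes drawn with magenta lines the probe sets lie more than 1 apart, and the 6 values below -1 all belong to probe sets with mean signals of 148.3 or less.

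RNAs of other proteins of the mitochondrial translation system gave a mixed picture. Of 4 measured ribosomal proteins under other symbols, Chchd1, of the small subunit, was higher (0.83 ± 0.18, adjusted p = 0.0395, limma). Dap3, Ptcd3 and Gadd45gip1 stood at 0.01, 0.19 and 0.01. Of 13 translation factors and mRNA-binding proteins 1 was higher and 0 lower, where 1.82% and 3.52% of all genes were. With the block 3 were higher (Slirp, Mrrf and Tufm) and 1 lower (Tsfm), where 8.77% and 11.1% of all genes were. Slirp, which with Lrpprc protects mitochondrial mRNAs, was the 1 that passed without the block, at 0.97 ± 0.18 (adjusted p = 0.0286, limma), whereas Lrpprc stood at -0.03 ± 0.20. The median of these 13 was 0.36, with 0.51 and 0.08 in the replicate pairs. Tufm, the mitochondrial elongation factor that brings tRNA to the ribosome, stood at 0.51 and Tsfm, its exchange factor, at -0.87, which did not pass without the block (adjusted p = 0.203 and 0.139, limma) and passed with it (adjusted p = 0.0492 and 0.0194, limma). The probe set of Tufm has an ID ending in x_at, so its value may hold cross-hybridization.

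Factors that assemble the ribosome or modify its RNA had a median near that of all genes; their difference from the family was not tested. Their probe sets were also dimmer, at a median signal percentile of 54.1 among all genes, where the members' was 83.7. Of 27 measured, 0 passed in either direction by limma and 12 had positive values, with a median of -0.02. The largest by test were Mettl17 at -0.99 ± 0.25 (adjusted p = 0.0598, limma) and Spg7. With the block 1 was higher (Fastkd2) and 3 were lower (Mettl17, Spg7 and Dhx30), shares of 3.7% and 11.1% beside 8.77% and 11.1% of all genes. The 6 measured genes for transcription of the mitochondrial genome had a median of -0.03, and 0 passed, with Mterf2 at 0.64 ± 0.39 and Polrmt, the RNA polymerase, at -0.32 ± 0.21 by limma. No probe set carried a symbol starting with mt-.

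Beside these, 33 complex I subunits had a median 0.40 above the median gene, with 2 higher and 0 lower (Ndufa5 and Ndufa1 at 0.93 and 0.75). With the block 20 of them (60.6%) were higher and 0 lower. The 41 cytosolic ribosomal proteins stood 0.34 above it, with 3 higher and 1 lower (Rps6, Rpl37 and Rpl14 at 0.97, 0.96 and 0.84, and Rpl12 at -2.45). With the block 29 of them (70.7%) were higher and 1 lower, beside 21.1% of the mitochondrial ribosomal proteins and 8.77% of all genes higher. Without it the shares higher were 6.06% of complex I, 7.32% of cytosolic and 3.95% of mitochondrial ribosomal genes, and 1.82% of all genes. The probe sets of both lists were brighter than the members', at median signal percentiles of 95.7 and 99.7. Both medians and the 0.29 of the mitochondrial ribosomal proteins come from the same 4 arrays, and their differences were not tested.

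**Figure D5:**
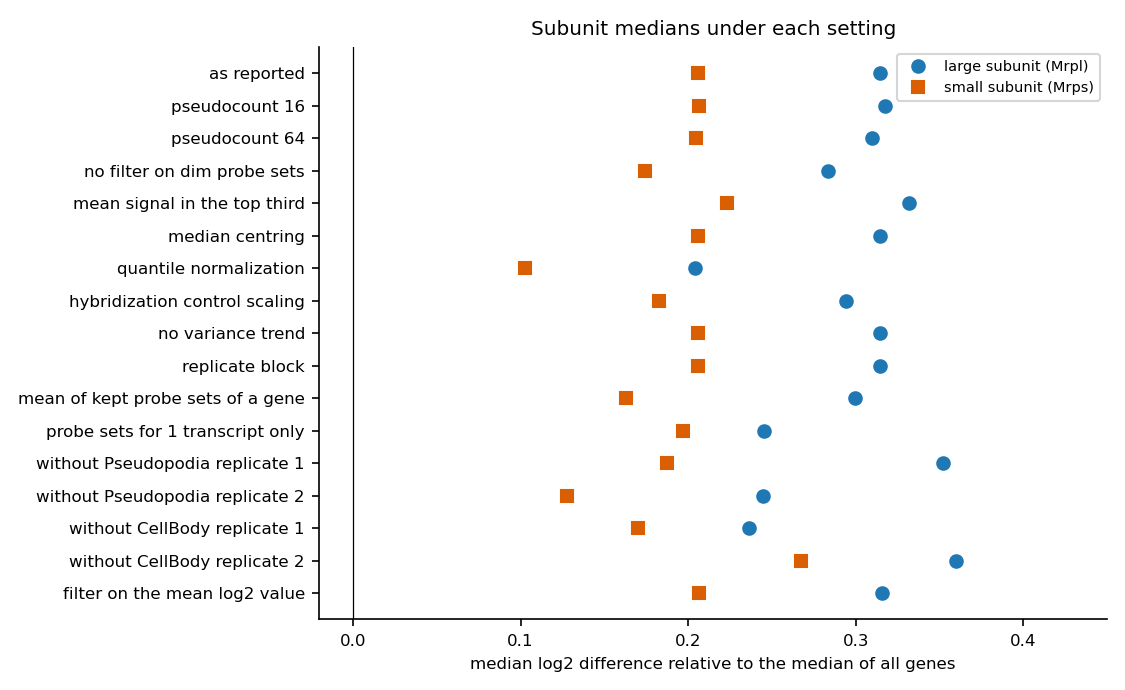
Median log2 difference relative to the median of all genes (x axis) for Mrpl and Mrps genes under each way of processing the signals (y axis). In every setting drawn both medians lie above 0 and that of Mrpl lies to the right, from 0.20 against 0.10 after quantile normalization to 0.36 against 0.27 without cell body replicate 2.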

How the data were processed

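RNA of 2 pseudopodia and 2 cell body samples was hybridized to Affymetrix mouse arrays. Per the labels' protocols, cells were fixed in 0.3% formaldehyde for 10 min, crosslinks were reversed at 70 °C for 45 min and total RNA was isolated with Trizol. The deposited values are linear intensities from MAS5, which the submitters' processing notes name; version and detection calls are not given in the sources used here. Array file headers show 1 chip lot and 2 scan days, each shared by the arrays of 1 replicate number.

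Each array was rescaled to 500 as its 2% trimmed mean, and values were taken as log2(signal + 32). Probe sets with a mean signal at or above the median were kept (22519 of 45037 that are no controls). Gene symbols came from the platform annotation (34958 probe sets with 1 symbol, 932 with several, 9211 unnamed here). The groups were fitted in limma 3.58.1 under R 4.3.3 (variance trend, two-sided, Benjamini-Hochberg, threshold 0.05). With 2 arrays a group, the smallest exact permutation p is 0.333. On simulated data with 200 of 10960 genes changed, 17.3% of changes of 1 and 82.3% of changes of 2 log2 units were found, and 6.13% of calls were false. In the data 200 genes passed as higher and 386 as lower, so these shares hold for the simulated number of changes only. Replicate 2 minus replicate 1 differences in both fractions correlated with r = 0.24 over kept probe sets, and the numbers pair arrays by scan day and by a code in the labels, so a blocked fit was run.

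Named genes are those past the threshold, the 8 highest and 8 lowest, the 6 with the widest probe set disagreement, 11 listed genes, and per pathway list those past the threshold or the 2 with the largest statistic; the members, lists and rules were chosen with earlier results of these data known. Other genes named were chosen after their values were seen. A 10-letter NRF1 motif searched first matched fewer genes. Alternatives changed the pseudocount, filter, scaling, variance model, block, probe set choice, subunit assignment and arrays.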

Additional observations from a re-analysis of the deposited data

How the results depend on the processing

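The shift of the family relative to the median gene kept its direction under all 16 alternatives, as did the order of the subunit medians under 17. Median centring, leaving out the variance trend and the block cannot change either value, so they are no checks of them. The subunit value was also identical without the filter, with the stricter filter and with the filter on the mean log2 value. This last filter was chosen after seeing the data. The family's shift was 0.26 without a filter on dim probe sets, 0.30 with a stricter filter, 0.15 after quantile normalization, 0.26 on hybridization controls, 0.24 with the probe sets of a gene averaged, 0.23 with probe sets for 1 transcript only (62 genes), and 0.21 to 0.33 without 1 array. Large minus small subunit was 0.14 with averaged probe sets, 0.048 with probe sets for 1 transcript, and 0.066 to 0.16 without 1 array. The 3 genes higher in pseudopodia became 0 without the filter (22 at an unadjusted p under 0.05) and 0 without the variance trend (13, and 0 of all genes called), 1 after median centring, 1 on hybridization controls, 16 with the replicate block, and 0 to 10 without 1 array. Probe sets higher, 6 in the report, numbered 0, 0, 3, 1 and 25 in the same order, and 0 to 20 without 1 array. Genes lower numbered 1 with probe sets for 1 transcript (Mrpl38, at -1.16) and 0 under the other alternatives. Mrpl52 passed in 12 of 16 alternatives, Mrpl32 in 10 and Mrps15 in 9.

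Sign changes among 27 named members were as follows. On hybridization controls Mrps10 and Mrps18a stood at -0.12, Mrpl38 and Mrps12 at -0.24, Mrps30 at -0.23 and Mrpl12 at -0.20. With averaged probe sets Mrps21 stood at -0.35, Mrps10 at -0.72, Mrpl38 at -0.23, Mrpl51 at -0.11 and Mrps5 at 0.12. With probe sets for 1 transcript Mrpl15 stood at -1.07 and Mrpl51 at -0.77. Mrpl55 stood at 0.026 after quantile normalization. Without 1 array Mrpl55 ranged from -0.27 to 0.074, Mrpl12 from -0.011 to 0.27 and Mrpl38 from -0.043 to 0.23. None of these passed except Mrpl38 with probe sets for 1 transcript. A fit without 1 array has a lone array in its fraction, whose spread is taken to be that of the other fraction. Averaging and the choice of probe sets bring in the dim ones described above, and the other causes were not tested. The number of arrays and, for dim probe sets, signal over background limit what can be detected.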

Other observations

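The probe set annotated to ND5, a complex I subunit encoded in the mitochondrial genome and made by these ribosomes, was looked up after other values were seen. It read 11548.3 and 9919.1 in pseudopodia, against 12078.4 and 10369.2 in cell bodies. The arrays overlapped, and the difference was -0.06 (adjusted p = 0.849 over probe sets, limma).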
